A study of Mus musculus with 2 samples.

Results

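The genes described here are 10 genes of prostaglandin synthesis and signalling, out of 55323 rows in the expression table. They are Pla2g4a, which frees the precursor, the cyclooxygenase genes Ptgs1 and Ptgs2, the terminal synthase genes Ptgds, Ptges, Ptges2 and Ptges3, the breakdown enzyme genes Hpgd and Ptgr1, and the receptor gene Ptger4. They were taken by gene symbol, and all 10 have a row. RNA came from TgS1, a line of mouse Schwann cells, the glia of peripheral nerve. Its genotype is TTR V30M tg, a human transthyretin transgene with the V30M variant of hereditary transthyretin amyloidosis. The cells of both groups carry the transgene and differ in the medium of a long-term culture: SCM, which the labels do not spell out, or DMEM, a common basal medium. There was 1 library per medium, so differences between media could not be checked in replicates and carry neither p-value nor SD. The table's column names end in 3 for SCM and in 1 for DMEM, which may be replicate numbers, and any further replicates were not analysed here. The labels do not say what promoter drives the transgene, whether the line is a single clone, or how many days the cultures were kept.

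Prostaglandins are lipid signals made from arachidonic acid. A phospholipase frees the fatty acid from membranes, a cyclooxygenase converts it to the unstable intermediate prostaglandin H2, and a terminal synthase turns that into prostaglandin D2, E2, F2-alpha, prostacyclin or thromboxane. The products leave the cell, act on receptors coupled to G proteins, and are inactivated by oxidation and reduction. Lipocalin-type prostaglandin D synthase, the product of Ptgds, is a secreted protein that also binds retinoids and other lipophilic molecules. In mouse peripheral nerve it has been described as acting in myelination downstream of axonal neuregulin.

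Of the 10 genes, Ptgds alone had 1 FPKM or more in a library and was at least 2-fold apart between the media. It had 41.0 FPKM in SCM and 1.83 FPKM in DMEM, 22.3-fold higher in SCM. The cyclooxygenase genes, whose products act just before it on the route, had few reads. Neither library held a read of Ptgs1, and Ptgs2 had 0 reads in SCM and 19 in DMEM. Pla2g4a, Ptges2, Ptges3 and Ptgr1 were present in both libraries within 2-fold, and Ptges, Hpgd and Ptger4 had at most 1 read in either. FPKM is a read count scaled by the length given for the row and by library total. That length may exceed the length of the transcript present, so levels of different genes compare only roughly.

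**Figure D1:**
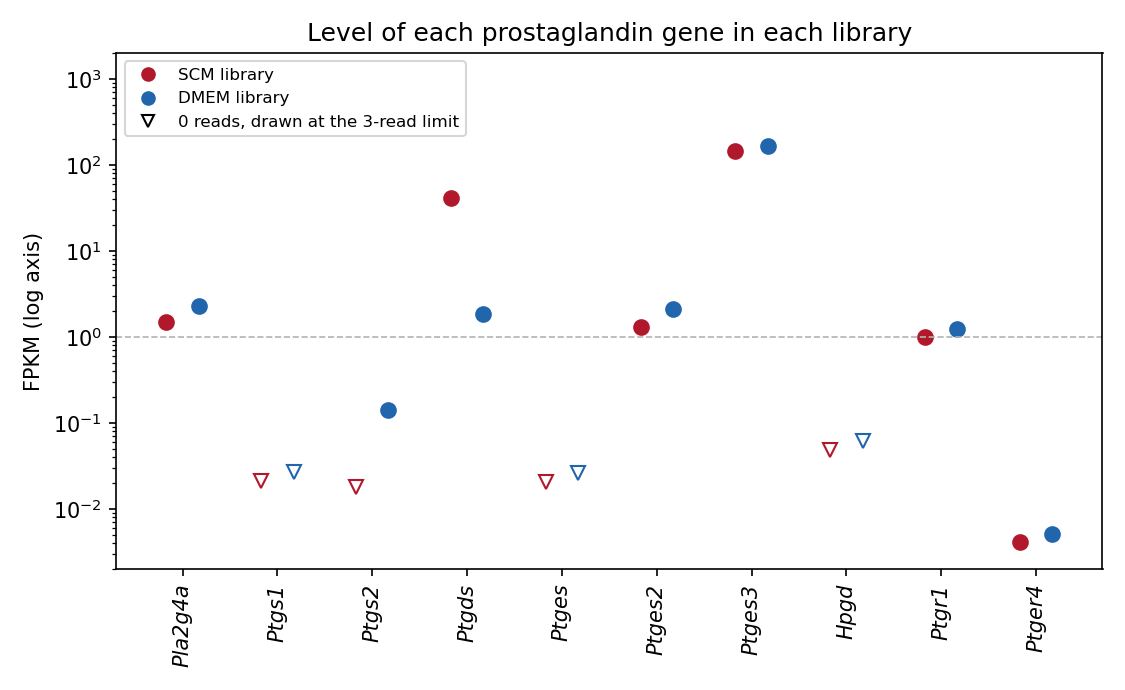
FPKM (log axis) of each of the 10 genes in the SCM library (red) and the DMEM library (blue), ordered by step of the pathway. Open triangles stand for 0 reads and are drawn at the level 3 reads would give, and the dashed line marks 1 FPKM. Ptgds is at 41.0 FPKM in SCM and 1.83 FPKM in DMEM, while Ptges3 is above 100 FPKM in both.

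Of the measured genes among the 10, the 3 measured terminal synthase genes hold the highest and the lowest ratio and the highest level. The stretches upstream of their RefSeq starts are therefore shown. Each is the part of the 250 bases before the RefSeq start (build GRCm38.p6) that lies in no exon of the GENCODE M21 annotation, written 5′ to 3′ on the gene's strand. Capitals mark matches, on either strand, to 6 motifs. They are TATAAA for the core promoter box of that name, GGGCGG for the GC box, TGACG for the core of the cAMP response element, TGANTCA for the AP-1 site, CACGTG for the E-box and AGAACA for the core of the glucocorticoid response element.
Ptgds, chr2:25469843-25469999, minus strand: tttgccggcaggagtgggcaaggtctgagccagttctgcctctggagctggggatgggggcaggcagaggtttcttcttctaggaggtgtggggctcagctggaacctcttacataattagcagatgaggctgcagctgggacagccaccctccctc
Ptges2, chr2:32395640-32395889, plus strand: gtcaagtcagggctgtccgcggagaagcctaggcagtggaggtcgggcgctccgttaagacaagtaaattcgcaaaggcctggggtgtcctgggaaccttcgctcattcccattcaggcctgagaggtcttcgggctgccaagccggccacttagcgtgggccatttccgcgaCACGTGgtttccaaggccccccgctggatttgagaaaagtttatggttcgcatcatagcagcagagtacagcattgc
Ptges3, chr10:128058732-128058953, plus strand: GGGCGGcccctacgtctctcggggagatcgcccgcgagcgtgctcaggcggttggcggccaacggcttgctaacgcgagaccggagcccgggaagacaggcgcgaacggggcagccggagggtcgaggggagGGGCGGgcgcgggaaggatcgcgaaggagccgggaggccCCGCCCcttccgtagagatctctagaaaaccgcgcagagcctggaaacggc

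The Ptgds stretch has no capitals, as none of the 6 motifs was found in its 157 bases. This stretch lies before the RefSeq start but inside the gene's GENCODE M21 span, chr2:25466709-25470046, outside its exons. It is therefore not upstream of the longest annotated form of the gene. Nearer to the RefSeq start, 35 to 29 bases before it and inside an exon of a longer GENCODE transcript, the gene has 1 AP-1 match, TGACTCA. A match to the AP-1 motif is found in 6.75% of 32851 mouse windows of 250 bases. The Ptges2 stretch has 1 E-box, which 6.02% of windows hold, and the Ptges3 stretch has 3 GC boxes, a motif in 32.7% of windows. The Ptges3 window is also richer in G and C, with 73.2% against 57.6% for Ptges2 and 58.4% for Ptgds. These are matches of letters only, and all 10 genes had a window in the RefSeq set.

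The SCM library held 36666676 reads assigned to rows of the table and the DMEM library 29085791, recovered from the FPKM steps. Each ratio has a 95% interval from its reads by the exact Clopper-Pearson method. Intervals and limits cover counting error only, and since amplified copies were not marked by molecular identifiers, reads may outnumber the molecules they came from. The Schwann cell label was checked against 12 markers. Of these, 11 reached 1 FPKM in 1 or both libraries, among them Ngfr and Cdh19, and the exception was Egr2, at 0.995 FPKM in SCM and 0.283 FPKM in DMEM. Of the 11, 8 were higher in SCM and 3 lower. The 12 markers summed to 4141 FPKM in SCM and 4168 FPKM in DMEM. Among the markers at least 2-fold higher in SCM were the adhesion gene Ncam1 and the myelin protein gene Pmp22. Pmp22 had 16.0 FPKM in SCM and 6.78 FPKM in DMEM. The 3 lower in SCM were Ngfr, 1.91-fold, Gap43, 1.83-fold, and Sox10, 1.11-fold.

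A gene was called when log2((FPKM in SCM + 1) / (FPKM in DMEM + 1)), the log2 ratio below, was at least 1 or at most -1, among the 12334 rows that reached 1 FPKM in the SCM library, the DMEM library or both. Among all those rows 3.10% were higher, 2.80% were lower and 5.89% were apart in either direction, with a median log2 ratio of -0.03. Of the 10 genes, 5 reached 1 FPKM, of which 1 was higher and 0 were lower, with a median log2 ratio of -0.16. The genes were chosen with this contrast known, so the count is a description and nothing is read from it. The 4 measured genes other than Ptgds all had log2 ratios below 0, between -0.43 and -0.16, and the counting interval of Ptgr1 held 1. Over all 12334 rows, 6687 lay below 0 and 5647 above, so nothing is read from the shared sign.

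**Figure D2:**
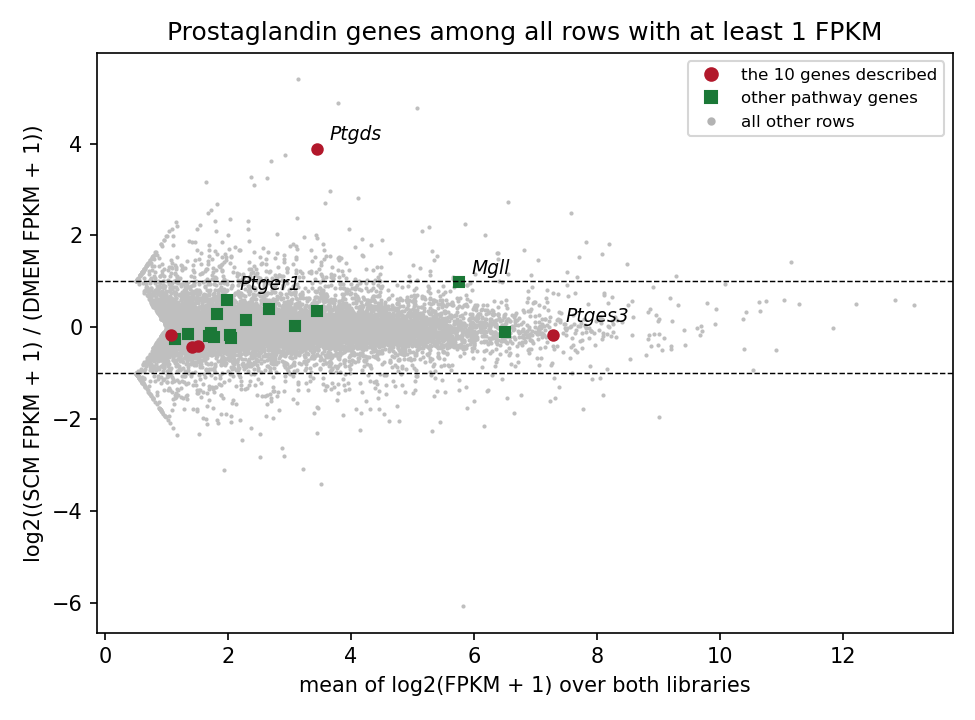
Log2 ratio of SCM over DMEM, with 1 FPKM added to each value, against the mean of log2(FPKM + 1) over both libraries, for all 12334 rows with at least 1 FPKM (grey), the 5 measured genes of the 10 described (red) and 15 other pathway genes (green). Dashed lines mark 2-fold. Ptgds stands at 3.89, and the other red points lie between -0.43 and -0.16.

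Release of arachidonic acid begins the route. Pla2g4a (ENSMUSG00000056220, chr1:149829618-149961290, minus strand, GRCm38) encodes cytosolic phospholipase A2 alpha, which cuts arachidonic acid out of membrane phospholipids. It had 1.47 FPKM (345 reads) in SCM and 2.26 FPKM (420 reads) in DMEM, 1.53-fold lower in SCM with a counting interval of 1.33 to 1.77. Its levels stood close to the 1 FPKM filter, at rank 10500 of all rows in SCM and 9264 in DMEM.

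The cyclooxygenase step had almost no reads in either library. Ptgs1 (ENSMUSG00000047250, chr2:36230426-36252272, plus strand, GRCm38) encodes the cyclooxygenase that many cells make constantly. It had 0 reads in SCM and 0 reads in DMEM, which allows up to 0.0211 FPKM in SCM and 0.0266 FPKM in DMEM, taking 3 reads as the limit that a count of 0 allows. Ptgs2 (ENSMUSG00000032487, chr1:150100031-150108227, plus strand, GRCm38) encodes the inducible cyclooxygenase. It had 0 reads in SCM and 19 reads in DMEM, that is, at most 0.0179 FPKM in SCM and 0.143 FPKM in DMEM, lower in SCM by at least 7.98-fold against the 3-read limit with the 19 reads taken as exact, and by at least 5.88-fold by the counting interval. Both values are under the 1 FPKM filter, so Ptgs2 is not counted among the called genes. Ptgs2 lies 139 kb from Pla2g4a on chromosome 1 in GRCm38, and the 2 rows within 50 kb of Ptgs2 were both under 1 FPKM.

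The terminal synthases held the gene with the largest log2 ratio of the 10. Ptgds (ENSMUSG00000015090, chr2:25466709-25470046, minus strand, GRCm38) encodes lipocalin-type prostaglandin D synthase, which makes prostaglandin D2. It had 41.0 FPKM (2479 reads) in SCM and 1.83 FPKM (88 reads) in DMEM. The ratio was 22.3 with a counting interval of 18.1 to 28.0, and the log2 ratio was 3.89. By level it ranked 892 among all rows in SCM and 9922 in DMEM. In bulk RNA, more cells with the transcript and more transcript per cell cannot be told apart.

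Of 6539 protein-coding rows whose higher library gave 5 FPKM or more from 20 reads or more, 3 had a higher log2 ratio than Ptgds. The 5 with the nearest log2 ratios over these 2 libraries were Fbln2, Ndrg2, Atp1b2, F3 and Serpina3m, at 3.75, 3.62, 3.28, 3.25 and 3.16. Fbln2, a matrix glycoprotein gene, was closest in level too, with 26.7 FPKM in SCM and 1.06 FPKM in DMEM. Likeness here rests on a single ratio per gene.

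The genes around Ptgds on chromosome 2 did not show ratios of that size. Of 9 rows within 50 kb in GRCm38, 4 reached 1 FPKM and 0 were 2-fold apart, against 5.89% of all 12334 rows. Their log2 ratios ran from -0.29 to 0.49. The nearest, Paxx, a DNA repair gene 5.62 kb away on the same strand, had 2.40 FPKM in SCM and 1.51 FPKM in DMEM. Abca2, a lipid transporter gene 18.2 kb away, had 16.6 FPKM in SCM and 11.5 FPKM in DMEM. The lipocalin gene Lcn12 and the lipocalin-related complement gene C8g, at 20.8 and 28.6 kb, had at most 5 reads in either library. No other row of the table overlaps Ptgds. Among other genes with a row, no GENCODE M21 transcript matched the longest Ptgds transcript at 95% identity over 200 bases in the same direction.

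Ptgds is also known as a marker of leptomeningeal cells and oligodendrocytes, so the markers of other cell types are given beside it. Of 8 perineurial and leptomeningeal markers 3 reached 1 FPKM, the list summed to 8.91 FPKM in SCM and 5.75 FPKM in DMEM, and Cldn1, Slc6a13 and Aldh1a2 were at 0 in both. Itgb4, an integrin gene, was the 1 measured gene of that list that was higher in SCM, with 4.25 FPKM in SCM and 0.941 FPKM in DMEM, and without it the list's sum would be slightly lower in SCM. Under the filter, Tbx18 was also higher in SCM, with 0.723 FPKM (125 reads) in SCM and 0.423 FPKM (58 reads) in DMEM. Foxc1, a transcription factor gene, was 1.42-fold lower in SCM (1.16 to 1.73), and the interval of the glucose transporter gene Slc2a1 held 1. Of 7 oligodendrocyte markers 2 reached 1 FPKM, Olig1 and Olig2, with a sum of 22.7 FPKM in SCM and 22.0 FPKM in DMEM. The myelin markers of that list, Mog, Mobp, Opalin and Mag, were at 0 in both libraries, as was Nkx2-2. Of 9 fibroblast markers 2 reached 1 FPKM, with a sum of 13.9 FPKM in SCM and 8.79 FPKM in DMEM. Most of that sum was the growth factor receptor gene Pdgfrb, at 10.6 FPKM in SCM and 7.86 FPKM in DMEM. The collagen gene Col1a2 had 3.15 FPKM in SCM and 0.742 FPKM in DMEM, the related receptor gene Pdgfra had 15 reads in SCM and 50 in DMEM, and Lum and Col1a1 were at 0.

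The summed levels of the remaining lists were lower in SCM, but each sum rests on few genes or few reads. Of 9 macrophage and mast cell markers 2 reached 1 FPKM, with a sum of 4.08 FPKM in SCM and 4.39 FPKM in DMEM and with Adgre1 and Cpa3 at 0. Of those 2, 1 was higher in SCM and 1 lower. None of 6 endothelial markers reached 1 FPKM, and 5 of them had at most 3 reads in each library. Their sum was 0.0277 FPKM in SCM and 0.0552 FPKM in DMEM, with Cdh5, Kdr, Emcn and Cldn5 at 0. Of 6 neuron markers only Tubb3 reached 1 FPKM, the list summed to 45.2 FPKM in SCM and 60.4 FPKM in DMEM, and Rbfox3, Syt1 and Elavl4 were at 0. Tubb3, at 45.0 FPKM in SCM and 60.2 FPKM in DMEM, made up nearly all of that sum. The part of Itgb4, Col1a2 and the other markers that were higher in SCM in the Ptgds ratio was not tested.

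The 3 prostaglandin E synthases differed from each other far more in level than between media. Ptges (ENSMUSG00000050737, chr2:30889471-30929863, minus strand, GRCm38), the inducible microsomal synthase usually coupled to Ptgs2, had 0 reads in SCM and 0 reads in DMEM. That allows up to 0.0208 FPKM in SCM and 0.0262 FPKM in DMEM. Ptges2 (ENSMUSG00000026820, chr2:32395896-32405772, plus strand, GRCm38), a membrane-associated synthase, had 1.30 FPKM (241 reads) in SCM and 2.10 FPKM (309 reads) in DMEM, 1.62-fold lower in SCM (1.36 to 1.92). It had the lowest log2 ratio of the 5 measured genes, at -0.43.

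Ptges3 (ENSMUSG00000071072, chr10:128058954-128077272, plus strand, GRCm38) encodes p23, a co-chaperone of Hsp90 that also has prostaglandin E synthase activity. With 146.8 FPKM (11934 reads) in SCM and 164 FPKM (10582 reads) in DMEM, it was the most abundant of the 10 and ranked 165 in SCM and 142 in DMEM. It was 1.12-fold lower in SCM (1.09 to 1.15). Its level is uncertain because the processed pseudogene Ptges3-ps matches it at 100% identity over 480 bases and has 1223 reads in SCM and 1020 in DMEM. With the reads of both rows added, the ratio was 1.11-fold lower in SCM (1.08 to 1.14).

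Ptgds made up a larger share of the terminal synthase transcripts in SCM. Over 11 terminal synthase genes, 4 of the 10 and 7 others of the pathway, it held 20.2% of the summed FPKM in SCM and 1.01% in DMEM. Without Ptges3, whose product is mainly a chaperone partner, the share was 73.0% in SCM and 10.5% in DMEM. These shares depend on the row lengths, 1649 bases for Ptgds and 8384 for Akr1b3. They also depend on which genes are listed as synthases. Akr1b8 alone gave 7.39 of the 17.5 FPKM left in DMEM without Ptges3. The haematopoietic prostaglandin D synthase gene Hpgds, which makes the same product from an unrelated protein, had 1 read in SCM and 0 in DMEM.

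Breakdown and reception of prostaglandins were thinly represented among the 10 genes. Hpgd (ENSMUSG00000031613, chr8:56294585-56321043, plus strand, GRCm38) encodes 15-hydroxyprostaglandin dehydrogenase, which starts inactivation by oxidation. It had 0 reads in SCM and 0 reads in DMEM, which allows up to 0.0486 FPKM in SCM and 0.0613 FPKM in DMEM. Ptgr1 (ENSMUSG00000028378, chr4:58965439-58987119, minus strand, GRCm38) encodes a reductase that acts on the oxidised products and on leukotriene B4. It had 0.998 FPKM (84 reads) in SCM and 1.23 FPKM (82 reads) in DMEM, and the interval of the SCM over DMEM ratio, 0.592 to 1.12, held 1.

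Ptger4 (ENSMUSG00000039942, chr15:5206661-5244187, minus strand, GRCm38), the EP4 receptor for prostaglandin E2, had 1 read in SCM and 1 read in DMEM. No fold is given at this count. Its row overlaps those of Ttc33, at 11.1 FPKM in SCM and 11.0 FPKM in DMEM, and of the pseudogene Gm15937, both on the opposite strand. Whether reads were counted by strand is not stated in the sources used here.

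Among the 5 measured genes, the counting interval lay above 1 for Ptgds and below 1 for Pla2g4a, Ptges2 and Ptges3. Over all 12334 rows it lay above 1 in 29.2% and below 1 in 36.3%, so an interval that excludes 1 was common at these depths. The plot of ratios sets the measured genes in order.

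**Figure D3:**
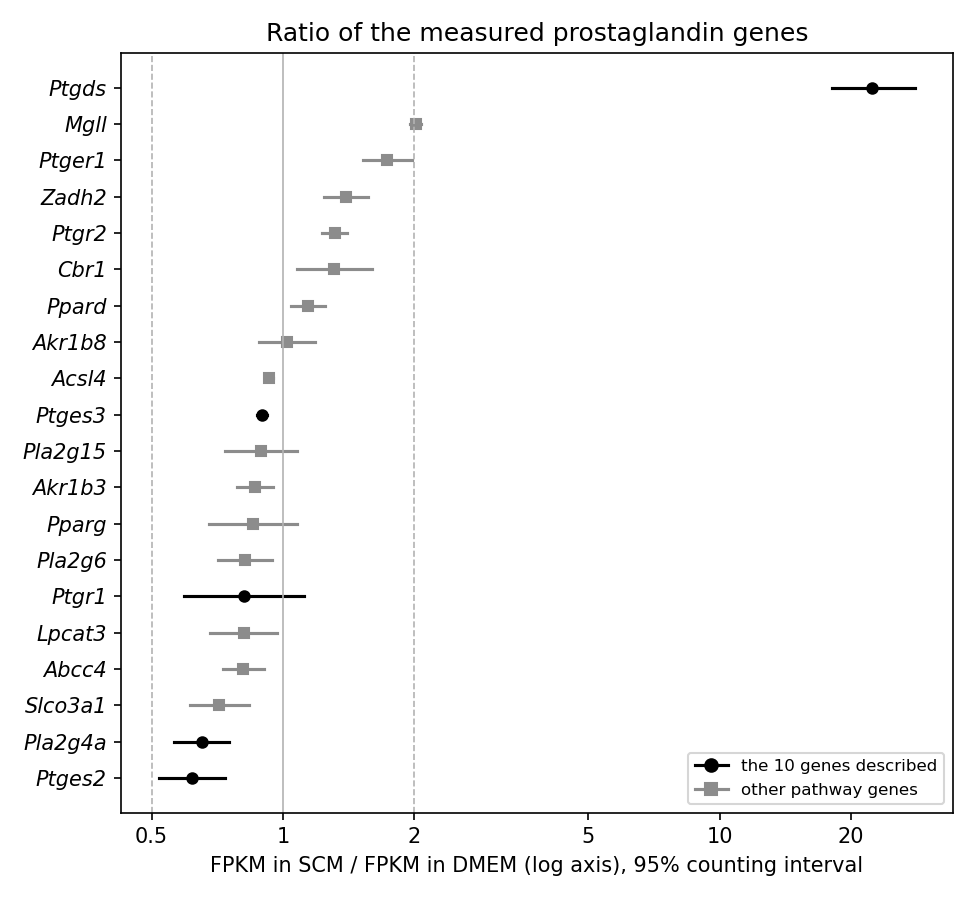
FPKM in SCM over FPKM in DMEM (log axis) with 95% counting intervals for the 5 measured genes of the 10 described (black circles) and the 15 measured genes of the rest of the pathway (grey squares). The solid line marks equal levels and the dashed lines 2-fold. Ptgds is at 22.3, Mgll at 2.01, and the other genes lie between Ptges2 at 0.619 and Ptger1 at 1.73.

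A list of 35 further genes of the pathway was used to place the 10. Of these 15 reached 1 FPKM and 0 were 2-fold apart in either direction, against 5.89% of all 12334 rows. Of the 15, 7 lay above 0 and 8 below, and the median log2 ratio was -0.10, against -0.03 over all rows. In arachidonate supply, Acsl4, which couples arachidonic acid to coenzyme A for storage in phospholipids, had 86.6 FPKM in SCM and 93.2 FPKM in DMEM. Mgll, which encodes monoacylglycerol lipase and frees arachidonic acid from 2-arachidonoylglycerol, had 75.2 FPKM in SCM and 37.4 FPKM in DMEM. Its FPKM ratio was 2.01 (1.95 to 2.08) and its log2 ratio 0.99, just under the limit. The Mgll row overlaps 5 others, the most abundant being Gm44005 on the same strand, with 12.1 FPKM in SCM and 9.99 FPKM in DMEM. The calcium-independent phospholipase gene Pla2g6 had 399 reads in SCM and 387 in DMEM, 1.22-fold lower in SCM by FPKM (1.06 to 1.41).

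Among the other synthases, the aldo-keto reductase gene Akr1b8 had 7.55 FPKM in SCM and 7.39 FPKM in DMEM. Its relative Akr1b3, which encodes an aldose reductase with prostaglandin F synthase activity, had 2.87 FPKM in SCM and 3.33 FPKM in DMEM. The prostacyclin synthase gene Ptgis had 0 reads in either library, and the thromboxane synthase gene Tbxas1 had 8 reads in SCM and 14 in DMEM. In breakdown, Ptgr2, a second reductase gene, had 11.3 FPKM in SCM and 8.62 FPKM in DMEM, above Ptgr1 in both libraries. The prostaglandin uptake transporter gene Slco2a1 had 18 reads in SCM and 28 in DMEM.

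Of 9 prostanoid receptor genes coupled to G proteins, Ptger4 included, 1 reached 1 FPKM. That was Ptger1, the EP1 receptor for prostaglandin E2, at 3.84 FPKM in SCM and 2.22 FPKM in DMEM, 1.73-fold higher in SCM (1.53 to 1.97). The level of Ptger1 is uncertain, because its row may share reads with an overlapping row. The prostaglandin D2 receptor genes Ptgdr and Ptgdr2 had 1 read between them in SCM and 0 in DMEM, and 5 of the 9 receptor genes had 0 reads in both libraries. Over all 45 genes, the 10 and the 35, 20 reached 1 FPKM. Of these Ptgds alone was 2-fold apart, against 5.89% of all 12334 rows, and nothing is read from this count.

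**Figure D4:**
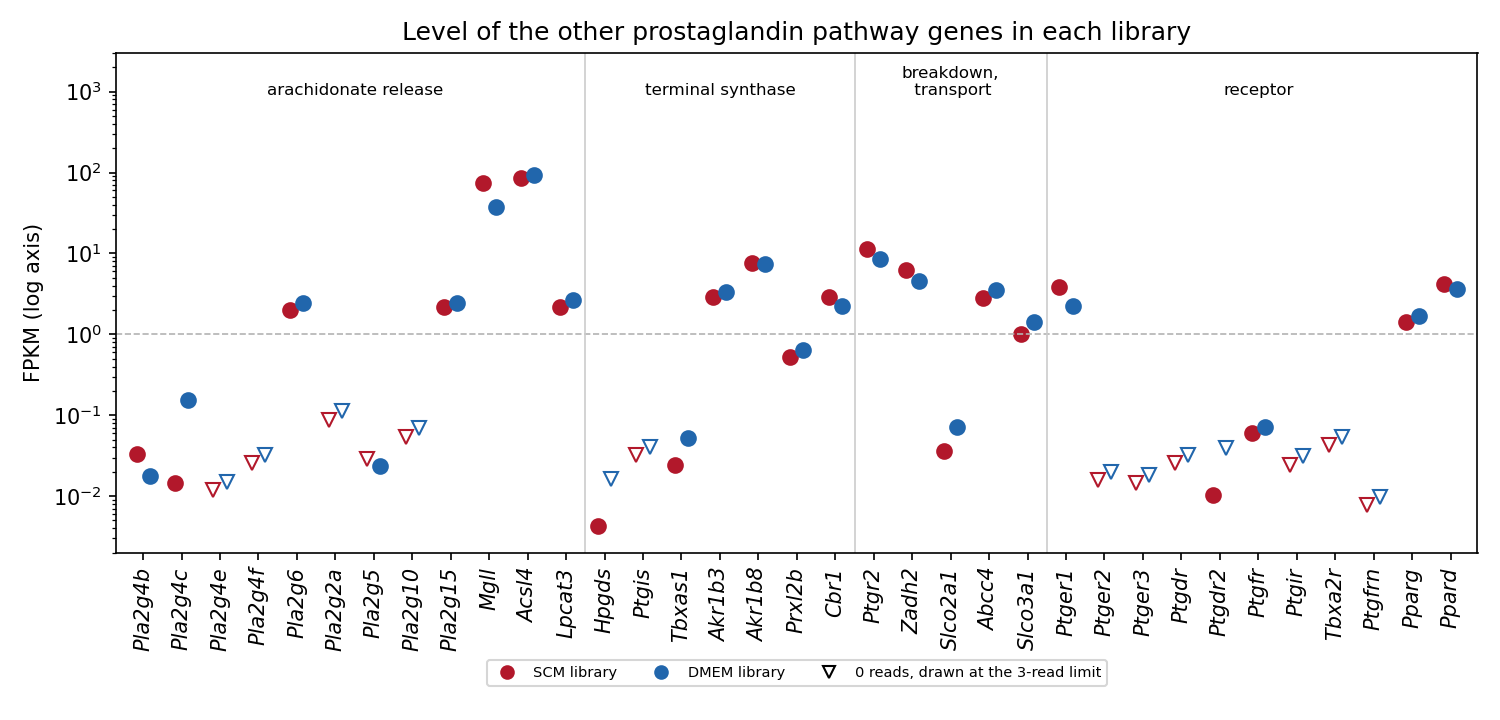
FPKM (log axis) of the 35 other pathway genes in the SCM library (red) and the DMEM library (blue), grouped by step. Open triangles stand for 0 reads, drawn at the level of 3 reads, and the dashed line marks 1 FPKM. Acsl4 and Mgll stand highest in both libraries, and most receptor genes are at 0 reads.

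Ptgds belongs by structure to the lipocalins, small secreted proteins that bind lipophilic molecules in a barrel-shaped pocket. Of 11 other lipocalin and lipocalin-related genes, 1 reached 1 FPKM. That was Apod, the apolipoprotein D gene, with 3738 FPKM in SCM and 1397 FPKM in DMEM, 2.68-fold higher in SCM (2.66 to 2.69). Lcn2 and Rbp4 were among the 8 with 0 reads in both libraries.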

How the data were processed

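TgS1 cells were sequenced with 1 stranded total RNA library per medium, prepared with the SMARTer kit and DNBSEQ conversion, per the labels' protocols. The deposited table gives FPKM values made by the authors for 55323 rows. Per the submitters' processing notes, STAR 2.7.9a, featureCounts 2.0.1, cutadapt 3.1, Trimmomatic 0.39 and Trim Galore were used, with the builds GRCm38.p6 and mm10. Roles, parameters and strand setting are not stated there.

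FPKM times length in kilobases came in whole steps in 100% of rows (tolerance 0.01), which gave the reads per row. No count model was fitted to single libraries. The log2 ratio used a pseudocount of 1 FPKM and a filter of 1 FPKM, and understates ratios of low genes. Fold values are plain FPKM ratios. Steps were tested on simulated reads. Named were all 10 genes, from each other list those 2-fold apart and up to 4 of the most abundant, and the 5 genes nearest to Ptgds. Others (Ptgis, Tbxas1, Akr1b3, Hpgds, Slco2a1, Ptgdr, Ptgdr2, Ptger1, Pla2g6, Egr2, Alox5, Alox5ap, Alox12, Mif, Pnpla8, genes at 0 and neighbours) were chosen after their values were seen. A few marker and overlapping genes are not reported here. Members and lists were chosen with earlier results of these data known. Positions are of GENCODE M21 (GRCm38), matched by gene ID, because the table's own coordinates overlap that annotation in only 10.6% of 52046 shared IDs, although GRCm38.p6 is named above, so their build is unclear. Neighbours come from GENCODE M21, and overlaps between rows from the table's coordinates. Near copies were sought with BLAST 2.17.0. Python 3.11.15, numpy 2.4.6 and scipy 1.17.1 were used.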

Additional observations from a re-analysis of the deposited data

How the results depend on the processing

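Ptgds was the 1 gene of the 10 called under all 9 alternatives: pseudocounts of 0.1 and 3 FPKM, no filter, a filter of 5 FPKM, TPM, TMM-type scaling, a threshold of 1.5-fold, and, chosen after seeing the data, protein-coding rows alone and read shares without division by length. None of the 10 was called lower. The log2 ratio of Ptgds was 4.41 with a pseudocount of 0.1 FPKM, 3.19 with 3 FPKM and 4.25 on TPM. Mgll, just under the limit, passed it with a pseudocount of 0.1 FPKM, with TMM-type scaling and in read shares, which gave 1 other pathway gene apart each time. At 1.5-fold, Mgll and Ptger1 made 2. The log2 ratios of Pla2g4a, Ptges2, Ptges3 and Ptgr1 stayed below 0 wherever they could be computed, and under the 5 FPKM filter Ptges3 alone of these 4 remained. Over all rows, 382 higher and 345 lower became 681 and 625 with a pseudocount of 0.1 FPKM, 148 and 131 with 3 FPKM, 210 and 165 with the 5 FPKM filter, 250 and 145 with protein-coding rows alone, 1011 and 1145 on TPM, and 974 and 928 at 1.5-fold. On TPM 16603 rows were tested, against 12334 as reported. The FPKM of all rows summed to 247650 in SCM and 237098 in DMEM, both under the fixed total of TPM. A filter and a pseudocount of 1 on TPM therefore act as smaller ones on FPKM. A smaller pseudocount or a lower threshold cannot call fewer rows. Other causes of the shifts were not tested.

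No paired analysis was possible because each medium has 1 library, so leaving out a library was not an option. Depth limits the genes at 0 reads: a 1 kb gene below 0.0818 FPKM in SCM or 0.103 FPKM in DMEM was not detectable by the 3-read limit.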

Other observations

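Another outlet for arachidonic acid is the lipoxygenase and leukotriene branch. Of 15 genes listed for it 2 reached 1 FPKM and 0 were 2-fold apart, against 5.89% of all 12334 rows. Lta4h, which encodes leukotriene A4 hydrolase, had 4939 reads in SCM and 3547 in DMEM, 1.10-fold higher in SCM by FPKM (1.06 to 1.15), and the microsomal glutathione transferase gene Mgst3 had 4.62 FPKM in SCM and 3.13 FPKM in DMEM. The 5-lipoxygenase gene Alox5, which starts leukotriene synthesis, had 1 read in SCM and 0 in DMEM. Its partner gene Alox5ap had 1 read in SCM and 9 in DMEM, and the 12-lipoxygenase gene Alox12 had 15 reads in SCM and 24 in DMEM.

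The authors' table also annotates each row with gene ontology terms, looked up here after the values were seen. Of 15 rows annotated to prostaglandin biosynthetic process, 5 reached 1 FPKM, Ptgds was the 1 that was 2-fold higher, and 0 were lower. Over all 12334 rows 3.10% were higher and 2.80% lower. Besides genes described above, this set holds the cytokine gene Mif, at 34.2 FPKM in SCM and 50.7 FPKM in DMEM, 1.48-fold lower in SCM (1.36 to 1.62). It also holds the phospholipase gene Pnpla8, at 9.50 FPKM in SCM and 8.71 FPKM in DMEM. Of 23 rows annotated to prostaglandin metabolic process 7 reached 1 FPKM. The 1 called was the same Ptgds row, against 5.89% called over all 12334 rows, so these counts add no separate result.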
